A study of Mus musculus with 6 samples.

Results

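The Notch pathway genes described here were 4 receptors (Notch1, Notch2, Notch3 and Notch4), 3 ligands (Jag1, Jag2 and Dll1), the DNA-binding effector Rbpj and the target repressors Hes1 and Hey1. They were followed through every probe set, the group of array probes that reports on a transcript, whose platform annotation names that gene alone. This gave 20 probe sets for 10 genes, of 45037 probe sets without the control probe sets and 18193 genes with such a probe set. The cells were bone marrow macrophages of C57BL/6 mice, either wild type (WT) or carrying a knockin mutation (KI), and both groups had been kept for 24 hours with the growth factor M-CSF (44 ng/ml) and the osteoclast-inducing cytokine RANKL (100 ng/ml). The series title places the knockin in the IVVY motif of RANK, the RANKL receptor; the altered residues are not described in the labels, and neither are the age or sex of the mice. Each genotype had 3 arrays, named WT 1 to WT 3 and KI 1 to KI 3. The labels do not say whether the 3 came from separate animals or cultures, so the p-values measure the spread between these samples, which may be technical.

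Notch receptors are single-pass membrane proteins that are activated by ligands of the Jagged and Delta-like families on a neighbouring cell. Ligand binding exposes the receptor to an ADAM protease and then to the gamma-secretase complex, and the released intracellular domain enters the nucleus, where it binds RBPJ and turns this DNA-bound factor from a repressor into an activator of genes such as Hes1 and Hey1. In the macrophage lineage the pathway is known to affect osteoclast formation, and RBPJ is known as a brake on it.

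The 6 arrays had close median intensities, at most 84.8. The first principal component separated KI from WT arrays, with WT 1 (-66.5) and KI 1 (54.0) farthest from the other group. The differences of Notch1, Notch2, Rbpj and Jag1 on their brightest probe sets are also given without these 2 arrays. That leaves 2 arrays of each genotype. Since the arrays left out were the farthest apart in these same data, p-values from the remaining ones can be too small. Most other differences are given with all 6 arrays, also where WT 1 and KI 1 were the ends of the range, as for Aph1b and Tle3. Tnfrsf11a, which encodes RANK, had 2 probe sets, one lower on KI arrays (399 to 549 against 979 to 1143 on WT arrays) and one whose groups overlapped. The part of the transcript they cover was not analysed here, so they do not check the labels. All 8 macrophage markers were bright and higher in KI cells, and 5 of 7 osteoclast markers were lower. The groups differed for a large share of the array: of 22518 probe sets bright enough to be tested, 44.9% passed the adjusted p threshold of 0.05 (limma, Benjamini-Hochberg), 19.3% as higher and 25.6% as lower in KI cells, and 60.9% had no overlap between the groups (26.1% with KI higher).

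Of the 20 Notch pathway probe sets, 9 were bright enough to be tested, with a mean log2 intensity above that of an intensity of 84.7, and 11 were dimmer. The 9 belonged to Notch1, Notch2, Jag1, Jag2 and Rbpj, and each of them also lay above that level in the WT arrays alone and in the KI arrays alone. Higher signal in KI cells was called for 6 of the 9, covering both probe sets of Notch1, 1 of the 2 of Notch2 and all 3 of Rbpj, against 19.3% of all tested probe sets called higher; 0 were called lower and the other 3, of Jag1 and Jag2, did not pass. The 9 had a median log2 difference of 0.71, against -0.04 over all probe sets tested. Probe sets of 1 gene are not independent, and the members were chosen with earlier results of these data known. No probe set of Notch3, Notch4, Dll1, Hes1 or Hey1 was bright enough to be tested, so those genes are described by their values.

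**Figure D1:**
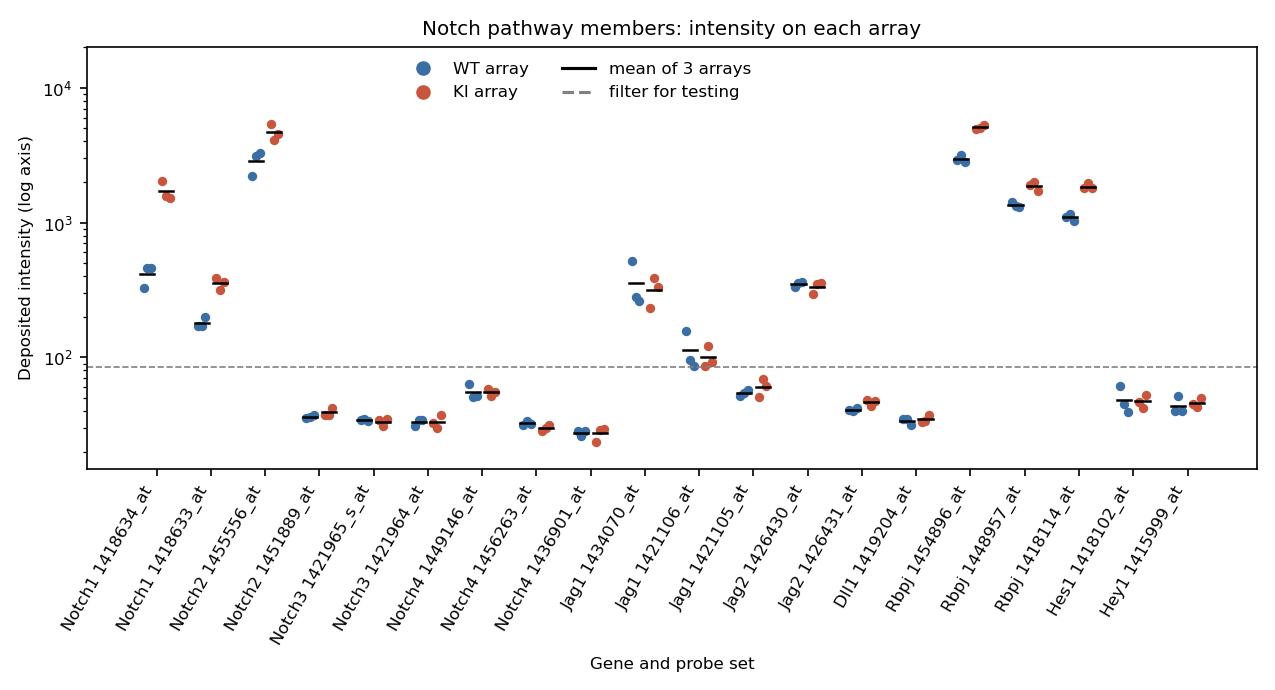
Deposited intensity (log axis) of each of the 20 probe sets of the 10 Notch pathway genes on the 3 WT and 3 KI arrays; points are arrays, black lines group means and the dashed line the filter at an intensity of 84.7. The KI points of Notch1, of the brighter Notch2 probe set and of Rbpj lie above all WT points, and the probe sets of Notch3, Notch4, Dll1, Hes1 and Hey1 lie below the line.

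Notch1, a receptor best known for its part in T cell fate, had the largest difference of the family. Its brighter probe set (1418634_at) gave intensities of 325, 457 and 462 on WT 1, WT 2 and WT 3 and of 2048, 1576 and 1531 on KI 1, KI 2 and KI 3. Every KI array lay more than 3-fold above every WT array, and the ends of the range were WT 1 and KI 1. The group means were 415 ± 77.9 (SD, n = 3) in WT and 1718 ± 286 (SD, n = 3) in KI cells. Notch1 rose by 2.06 on the log2 scale (SE 0.18, 95% interval 1.64 to 2.48, limma adjusted p = 0.00061), a 4.16-fold change and the 77th largest rise of the 22518 probe sets tested. A rise of at least 2-fold past the threshold was found for 4.19% of them, and this was the one such rise among the members. Without WT 1 and KI 1 the log2 difference was 1.76.

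The other Notch1 probe set (1418633_at) gave 172, 170.4 and 199 on the WT arrays and 387, 316 and 361 on the KI arrays, again without overlap. Its rise was 0.97 on the log2 scale (SE 0.11, limma adjusted p = 0.0013), a 1.96-fold change. Within an array, the brighter probe set exceeded this one by 0.92 to 1.42 on the log2 scale on WT arrays and by 2.08 to 2.40 on KI arrays. The 2 estimates therefore differed by 1.08, with no overlap between the groups, for which the two-sided exact permutation test gives p = 0.1, the smallest value that 3 against 3 arrays allow.

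Notch2, the receptor that with Notch1 is the one usually found in myeloid cells, was higher in KI cells on its brighter probe set (1455556_at). The intensities were 2226, 3091 and 3297 on the WT arrays and 5334, 4099 and 4518 on the KI arrays. All KI arrays were above all WT arrays, and as for Notch1 the lowest was WT 1 and the highest KI 1. The means were 2871 ± 568 (SD, n = 3) in WT and 4651 ± 628 (SD, n = 3) in KI cells, and Notch2 rose by 0.71 on the log2 scale (SE 0.17, 95% interval 0.31 to 1.10, limma adjusted p = 0.014), a 1.63-fold change. Without WT 1 and KI 1 the rise was smaller, 0.43. Its limma adjusted p of 0.00088 rests on 2 arrays of each genotype, kept after the most distant ones were dropped. The call ended when replicate number was fitted as a block (limma adjusted p = 0.058) and without the filter (limma adjusted p = 0.055), both with the same difference. The second Notch2 probe set (1451889_at) was dim on every array, between 35.4 and 42.4, with overlapping groups.

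Notch3 and Notch4, receptors known mainly from vascular smooth muscle and endothelium, gave low signal throughout. Both Notch3 probe sets lay between 30.1 and 37.3 on all 6 arrays. The 3 probe sets of Notch4 lay between 23.8 and 29.5, between 28.2 and 33.6, and between 51.2 and 64.0. None of the 5 separated the groups, and their log2 differences ran from -0.12 to 0.01. No detection call was used here, so whether either transcript was present was not judged, and no change was detectable at this signal.

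Rbpj, the DNA-binding protein on which all 4 receptors converge, was higher in KI cells on each of its 3 probe sets. On the brightest (1454896_at) the intensities were 2910.0, 3158 and 2807 on the WT arrays and 4922, 5002 and 5278 on the KI arrays. The groups were far apart relative to their spread: the means were 2958 ± 181 (SD, n = 3) in WT and 5067 ± 187 (SD, n = 3) in KI cells. This probe set rose by 0.78 on the log2 scale (SE 0.07, 95% interval 0.62 to 0.94, limma adjusted p = 0.00064), a 1.71-fold change. Unlike the brighter probe sets of Notch1 and Notch2, it did not have its ends at WT 1 and KI 1, and without these 2 arrays the rise was 0.79.

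The probe set 1418114_at of Rbpj gave 1106, 1148 and 1024 on the WT arrays and 1791, 1946 and 1797 on the KI arrays, a rise of 0.76 (SE 0.08, limma adjusted p = 0.0011). The probe set 1448957_at gave 1411, 1335 and 1304 on the WT arrays and 1911, 1997 and 1709 on the KI arrays, a smaller rise of 0.47 (SE 0.09, limma adjusted p = 0.0057). The groups overlapped on neither. The gap between the brightest probe set and 1448957_at was wider by 0.31 on the log2 scale in KI cells, again without overlap (two-sided exact permutation p = 0.1), while that to 1418114_at differed by 0.02.

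**Figure D2:**
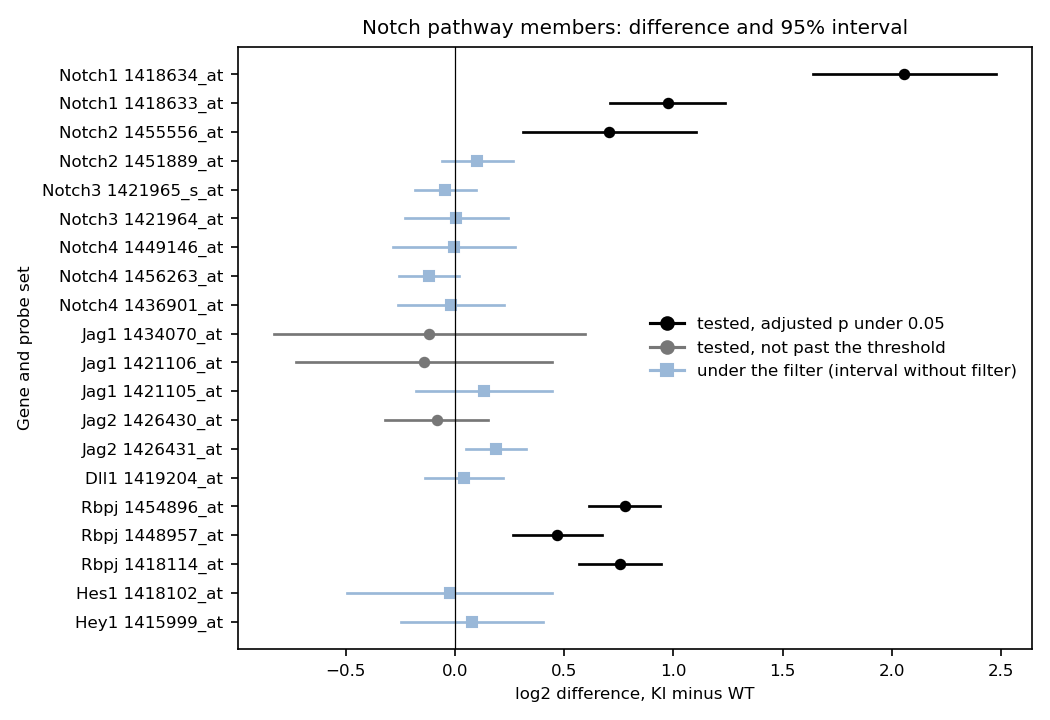
Difference between KI and WT arrays (log2, x axis) for each Notch pathway probe set, with its 95% interval; circles were tested, squares lay under the filter and have their interval from the fit without it. The intervals of both Notch1 probe sets, 1 of Notch2 and 3 of Rbpj lie above 0, those of the tested Jag1 and Jag2 probe sets span it. Among the squares, that of Jag2 1426431_at also lies above 0 (0.05 to 0.32), although its adjusted p missed the threshold.

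The size of these 6 differences depended on how the arrays were scaled to each other. Probe sets for the spike-in RNAs that Affymetrix adds before hybridisation were brighter on KI arrays, by 0.02 to 0.18 above their mean on the log2 scale, and dimmer on WT arrays. Scaled to these, the median over all probe sets tested went from -0.04 to -0.25, and the rises became 1.85 and 0.77 for Notch1, 0.50 for Notch2, and 0.57, 0.55 and 0.26 for Rbpj, the last no longer past the threshold (limma adjusted p = 0.096). An older group of spike-in probe sets varied more between WT arrays, with deviations of -0.36, 0.08 and -0.52 on WT 1, WT 2 and WT 3. On KI arrays its deviations were 0.18 to 0.34. Scaled to this older group, the median was -0.57, and the brighter Notch1 probe set still rose, by 1.53 (limma adjusted p = 7.5e-07). The other differences were 0.44 for Notch1, 0.18 for Notch2, and 0.25, 0.23 and -0.06 for Rbpj, none past the threshold.

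Promoter sequences for the genes that were higher together are given because RBPJ is itself a sequence-specific factor with the core letters TGGGAA. The windows, from RefSeq on build GRCm38.p6, run from 250 bases before to 50 bases after the transcript start and are written 5′ to 3′ on the gene's strand, with any TGGGAA or its reverse complement TTCCCA in capitals. Such windows were held for 8 of the 10 genes, leaving out Hes1 and Hey1.
Notch1, chr2:26503773-26504072, minus strand: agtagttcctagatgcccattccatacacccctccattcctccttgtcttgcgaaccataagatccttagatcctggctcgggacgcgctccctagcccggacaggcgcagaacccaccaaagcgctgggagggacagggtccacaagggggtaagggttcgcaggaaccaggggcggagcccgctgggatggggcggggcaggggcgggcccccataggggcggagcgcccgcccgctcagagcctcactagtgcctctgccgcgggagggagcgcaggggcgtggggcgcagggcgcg
Notch2, chr3:98013288-98013587, plus strand: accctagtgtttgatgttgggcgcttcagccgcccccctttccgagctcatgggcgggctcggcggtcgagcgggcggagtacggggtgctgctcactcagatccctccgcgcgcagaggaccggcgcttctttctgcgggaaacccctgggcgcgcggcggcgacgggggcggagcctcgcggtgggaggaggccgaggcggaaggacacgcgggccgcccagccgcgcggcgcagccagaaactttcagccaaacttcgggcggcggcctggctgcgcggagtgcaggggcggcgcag
Rbpj, chr5:53590096-53590395, plus strand: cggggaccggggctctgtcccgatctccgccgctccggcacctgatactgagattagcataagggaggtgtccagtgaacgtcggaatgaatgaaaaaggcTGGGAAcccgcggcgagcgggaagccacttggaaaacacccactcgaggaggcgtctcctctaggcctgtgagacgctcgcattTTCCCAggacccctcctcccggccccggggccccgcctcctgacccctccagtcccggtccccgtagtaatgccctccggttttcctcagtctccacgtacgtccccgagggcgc
The Rbpj window held TGGGAA at position 102 and TTCCCA at position 186, counted from its first base. The Notch1 and Notch2 windows held neither. Of 32851 such windows in the table, 25.6% held the core on either strand, and 6.38% held the longer GTGGGAA, which contains it and was in 0 of the 10 windows of these genes. A second Rbpj window, which overlaps the printed one, was the only other window of these genes with the core. A match of letters is not a binding site, and no match concerns these windows alone.

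Jag1, a Notch ligand, varied more between arrays of 1 genotype than between genotypes. Its brightest probe set (1434070_at) gave 520.5, 279 and 262 on the WT arrays and 233, 385 and 332 on the KI arrays, so that WT 1 stood above all others and KI 1 below. The log2 difference was -0.12 (SE 0.30, 95% interval -0.83 to 0.59, limma adjusted p = 0.78). Without WT 1 and KI 1, the ends of its own range, the direction turned and the log2 difference was 0.40. Its limma adjusted p of 0.012 rests on 2 arrays of each genotype, kept after the most distant ones were dropped. The second probe set (1421106_at) had the same extreme high array, with 157, 95.7 and 85.7 on the WT arrays and 86.1, 121 and 92.1 on the KI arrays. Its log2 difference was -0.14 (SE 0.25, 95% interval -0.73 to 0.44, limma adjusted p = 0.67), and 0.22 without WT 1 and KI 1 (limma adjusted p = 0.24). Under the scaling to the older spike-in probe sets both passed as lower in KI cells, with -0.65 (limma adjusted p = 0.039) and -0.67 (limma adjusted p = 0.024). The third probe set (1421105_at) was dim, with 51.9 to 57.2 on the WT arrays and 51.0 to 68.7 on the KI arrays.

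Jag2, the other Jagged ligand, did not differ beyond its spread on its brighter probe set (1426430_at). It gave 333, 357 and 362 on the WT arrays and 294, 349 and 353 on the KI arrays, which overlap except for KI 1. The log2 difference was -0.08 (SE 0.10, limma adjusted p = 0.53), with a 95% interval of -0.32 to 0.15. The dim probe set 1426431_at gave 40.4, 39.9 and 42.0 on the WT arrays and 48.2, 43.9 and 47.2 on the KI arrays. It was the single one of the 11 dim probe sets whose groups did not overlap, where 18.7% of all probe sets under the filter had no overlap, and it missed the threshold in the fit without the filter (log2 difference 0.19, limma adjusted p = 0.073). Dll1, a Delta-like ligand, gave 35.1, 34.7 and 31.3 on the WT arrays and 33.1, 33.8 and 37.2 on the KI arrays, with overlapping groups.

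Hes1 and Hey1, basic helix-loop-helix repressors that are the usual readout of Notch signalling, were dim in both genotypes. Hes1 (1418102_at) gave 61.1, 45.4 and 39.6 on the WT arrays and 46.5, 42.4 and 52.9 on the KI arrays. The groups overlapped fully, with a log2 difference of -0.02 and a 95% interval of -0.49 to 0.44 from the fit without the filter (limma adjusted p = 0.97). Hey1 (1415999_at) gave 39.9, 51.6 and 40.0 on the WT arrays and 45.2, 42.6 and 50.3 on the KI arrays, which also overlap. Its log2 difference was 0.08, with a 95% interval of -0.25 to 0.40 (limma adjusted p = 0.74 without the filter). In the fit without the filter 18.7% of all probe sets passed, bright ones included, and the share among dim ones was not counted. Over the 11 dim probe sets, log2 differences ran from -0.12 to 0.19 and 0 passed the threshold in that fit. Both spike-in scalings shift every probe set alike and turned these differences to between -0.32 and -0.02 and, with the older group, to between -0.65 and -0.34. No test was run on them there.

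The order of the arrays within a genotype was set beside markers of the cell types that the cultures could hold. Summed over 8 macrophage markers, intensity was 90761, 107445 and 111245 on the WT arrays and 141077, 135581 and 135809 on the KI arrays. The brighter probe sets of Notch1 and Notch2 shared the low value of WT 1 and the high value of KI 1. The other Notch1 probe set was highest on KI 1 and lowest on WT 2, with WT 1 close to it. These ends were not particular to macrophage markers. The sums of neutrophil and progenitor markers (15960 on WT 1, 43860 on KI 1) and of T and NK cell markers (409 and 689) had them too. Summed over 7 osteoclast markers, intensity was 58440.2, 50165 and 52234 on the WT arrays and 26915, 30947 and 29801 on the KI arrays, with the ends reversed. Jag1, on its brightest probe set, had the order of that sum on KI arrays. On WT arrays both were highest on WT 1, but the sum was lowest on WT 2 and Jag1 on WT 3. In bulk RNA, more cells of a type and more RNA per cell cannot be told apart, and the part of cell composition in the differences of Notch1, Notch2 and Rbpj was not tested.

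Markers of other cell types were summed in the same way. The 9 stromal and osteoblast markers measured summed to 9136, 5740 and 2902 on the WT arrays and 10508, 2792 and 9002 on the KI arrays, and Lum, Pdgfra and Sp7 were under the filter. On WT arrays this sum had the order of Jag1 on its brightest probe set, and on KI arrays the reverse order. Of the 6 stromal markers tested, Dcn was lower in KI cells and the other 5 did not pass, where 27.0% of all tested genes were lower. Dcn fell by 1.44 on the log2 scale (limma adjusted p = 0.00071). Its intensities were 142 to 196 on WT arrays and 57.0 to 63.5 on KI arrays, the latter below the level of the filter. Of 8 endothelial markers 6 were under the filter, with sums of 753 to 959 on WT arrays and 687 to 702 on KI arrays, and Kdr was the brightest. Of 6 T and NK cell markers 4 were under the filter, among them Cd3g, Cd3d and Cd8a, with sums of 409 to 577 and 554 to 689; Cd4 was the brightest on KI arrays. Of 6 B cell markers 5 were under the filter (331 to 491 and 374 to 448), as were all 7 mast cell and basophil markers (302 to 356 and 285 to 311). Neutrophil and progenitor markers summed to 15960 to 19995 on WT arrays and 22290 to 43860 on KI arrays, with S100a8 and S100a9 the brightest. Of these markers 6 of 9 were higher, against 20.9% of all tested genes. Erythroid and megakaryocyte markers summed to 2502 to 3388 and 7513 to 9169, mostly from Pf4, which rose by 1.72 on the log2 scale. It was the only 1 of the 3 tested to pass. Itga2b (-0.04, limma adjusted p = 0.69) and Gp9 (0.02, limma adjusted p = 0.88) did not, and Hba-a1, Klf1 and Ppbp were under the filter. The part of these cell types in the Notch differences was not tested.

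**Figure D3:**
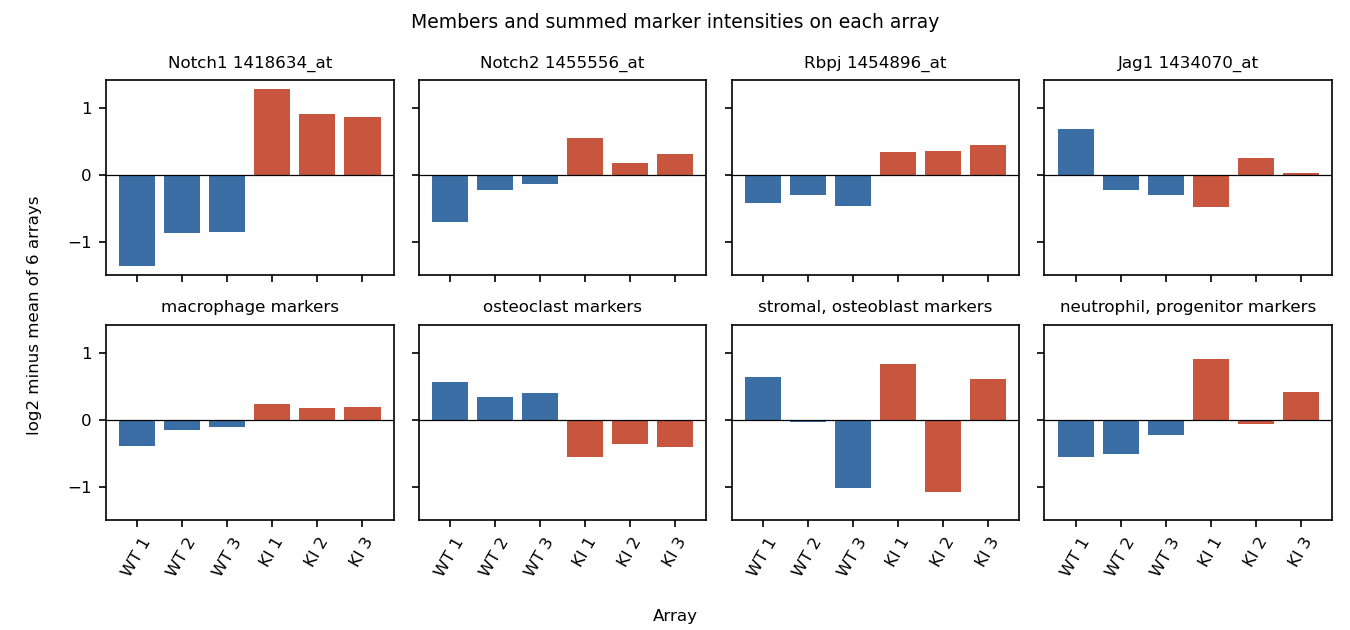
log2 intensity minus its mean over the 6 arrays (y axis) on each array for 4 Notch pathway probe sets (top) and for summed intensities of 4 marker lists (bottom), with bars for WT arrays in blue and KI arrays in red. The plotted probe sets of Notch1 and Notch2 have their lowest value on WT 1 and their highest on KI 1, Jag1 is highest on WT 1 (0.69) and lowest on KI 1 (-0.47), and the stromal sum is low on WT 3 and KI 2.

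The genes nearest to the members in their pattern over the 6 arrays were found by the root mean square difference between log2 values, each centred on its own mean. Nearest to the brighter Notch1 probe set were Mtus1, P2ry12, Rapsn and Abcd2, with differences of 0.09 to 0.11 and KI minus WT values of 1.94, 2.01, 1.87 and 2.08. Nearest to the brightest Rbpj probe set were Adam15, Nmb, Ets1 and Atg7, with differences of 0.03 to 0.04 and KI minus WT values of 0.77, 0.75, 0.76 and 0.79. This measure counts the size of the rise as well as the order of the arrays.

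The rest of the pathway was described through 51 further genes in 7 lists, each gene by its brightest probe set. Of these, 47 had a probe set named for that gene alone and 37 were bright enough to be tested; 13 were higher and 3 lower in KI cells. By the same rule 47.9% of the 10941 genes tested on the array passed, 20.9% as higher and 27.0% as lower. The median log2 difference of the 37 was 0.07. Under the spike-in scaling 6 were higher and 8 lower, under the older one 2 and 9, 6 and 2 when a block for replicate number was fitted, and 8 and 4 without KI 3, so the split between higher and lower depended on these choices.

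Cleavage of the receptor involved 7 tested genes, of which 4 rose and 0 fell, where 20.9% of all tested genes rose and 27.0% fell. Aph1b, a scaffold subunit of gamma-secretase, had intensities of 234 ± 59.6 (SD, n = 3) in WT and 530.4 ± 42.6 (SD, n = 3) in KI cells and rose by 1.21 on the log2 scale (SE 0.20, limma adjusted p = 0.0039), with its second tested probe set at 0.73. The catalytic subunit gene Psen2 rose by 0.52 on its brightest probe set (limma adjusted p = 0.014), and its other probe set gave 0.15 and did not pass (limma adjusted p = 0.23). The protease gene Adam17 rose by 0.32 (limma adjusted p = 0.0052), with 0.26 (limma adjusted p = 0.048) and 0.23 (limma adjusted p = 0.17) on its other 2 probe sets, and the subunit gene Psenen by 0.24 (limma adjusted p = 0.012). Under the spike-in scaling the calls of Adam17 and Psenen ended, and under the older one those of all but Aph1b, with 1 gene of the list then lower. With the replicate block 2 of this list rose, and Psen2 and Psenen lost their calls. Psen2 also did so without KI 3 (limma adjusted p = 0.051) and with a covariate for the number each sample description carries (limma adjusted p = 0.057). Adam10, the protease that makes the ligand-dependent cut, differed by -0.04 (SE 0.08), and the scaffold subunit gene Aph1a by 0.00, although its other 2 probe sets rose by 0.35 and 0.34.

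Among 6 genes of receptor maturation, Furin, the protease that cuts the receptor precursor, rose by 0.61 (SE 0.10, limma adjusted p = 0.0038; 0.08 and not past the threshold under the older spike-in scaling). Pofut1, which adds the O-fucose needed for ligand binding, rose by 0.39 on its brightest probe set (adjusted p = 0.014), but another of its probe sets fell by 0.49 and the remaining one gave 0.00. Its call ended under both spike-in scalings, the block and the covariate. The Fringe glycosyltransferases Mfng (-0.24, adjusted p = 0.053) and Rfng (0.19, adjusted p = 0.060) lay close to the threshold on either side of 0; Mfng passed as lower under both spike-in scalings, in the top 30% of probe sets and without WT 1 and KI 1, and Rfng passed as higher with quantile normalization, in the top 30% and without the filter.

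Of all tested genes 20.9% were higher and 27.0% lower. Genes of trafficking and ubiquitination changed in both directions, 4 higher and 2 lower of 10. The number higher was 1 under the spike-in scaling, 0 under the older one, 1 with the replicate block, 2 with the covariate, 1 without WT 2, KI 1 or KI 3, and 2 without WT 3 or KI 2, while 2 were lower in each of these. The Deltex family of ubiquitin ligases, which act on Notch receptors, split within itself. Dtx4 had intensities of 5119 ± 249 (SD, n = 3) in WT and 2370.3 ± 202 (SD, n = 3) in KI cells and fell by 1.11 in log2 (SE 0.08, limma adjusted p = 0.00039), and Dtx2 fell by 1.03 (SE 0.16, limma adjusted p = 0.0037). A further probe set of each gave -1.02 and -1.14. Dtx3 rose by 0.94 (SE 0.15, limma adjusted p = 0.0040; 0.41 and not past the threshold under the older spike-in scaling). Dtx1, itself a Notch target, gave 89.8 ± 4.05 (SD, n = 3) in WT and 103 ± 3.48 (SD, n = 3) in KI cells and did not pass (0.20, adjusted p = 0.085). Mib2, a ligase that acts on the ligands, rose by 0.38 (adjusted p = 0.023), a call that ended without WT 2, KI 1 or KI 3, under both spike-in scalings, with the covariate and with the block.

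None of the 4 tested coactivators passed: Ep300 (0.14), Snw1 (-0.05), Maml1 (-0.03) and Kat2b (0.01) all had 95% intervals within -0.24 to 0.38. Snw1 passed as lower under the spike-in scaling alone (-0.26, limma adjusted p = 0.039). Of 7 tested RBPJ corepressors, 2 rose and 1 fell, where 47.9% of all tested genes passed in either direction. Tle3, a Groucho-type corepressor, had intensities of 850.3 ± 227 (SD, n = 3) in WT and 1965 ± 379 (SD, n = 3) in KI cells and rose by 1.23 (SE 0.23, limma adjusted p = 0.0065), with its other 3 probe sets at 1.39, 0.90 and 1.08. L3mbtl3, a chromatin reader that binds RBPJ, rose by 0.60 (adjusted p = 0.0035; 0.07 and not past the threshold under the older spike-in scaling), with another tested probe set at 0.83. Ctbp2 fell by 0.43 on its brightest probe set (limma adjusted p = 0.010, and 0.054 with the block), and its other probe set gave -0.15 and did not pass (limma adjusted p = 0.15). Ctbp1 differed by -0.11 (adjusted p = 0.19) and passed as lower under both spike-in scalings.

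The list of other targets held 7 genes, of which 5 were under the filter. Whether each of them responds to Notch signalling was not tested, so a rise or fall here is not a readout of it. Of the 2 tested, Hes6 rose by 0.43 (SE 0.11, limma adjusted p = 0.022), with its other probe set at 0.35 (limma adjusted p = 0.030). That call ended without KI 1 or KI 3, without the filter, with the covariate, with the block and under both spike-in scalings. Hes5, under the filter, gave 104, 93.7 and 94.4 on the WT arrays and 71.0, 71.5 and 75.9 on the KI arrays, without overlap, and was lower in the fit without the filter (log2 difference -0.42, limma adjusted p = 0.020). Its second probe set, also under the filter, gave a log2 difference of 0.02. By the brightest probe set, Hes5 was the only one of the 10 pathway genes under the filter to pass there, and it was named after its values were seen. In the reported fit 0 genes of this list were lower. The count was 1 without KI 1, KI 2 or KI 3, and without probe sets whose suffix marks possible matches to several transcripts. Those counts do not name the gene. Of all probe sets under the filter 18.7% had no overlap, and the share that passed without the filter was not counted. Of ligands outside the members, Dll3, Dll4 and Dlk1 were under the filter, and Dlk2, a Notch inhibitor, differed by -0.16 on its brightest probe set (limma adjusted p = 0.17), passing as lower under both spike-in scalings, and by 0.01 on the other.

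**Figure D4:**
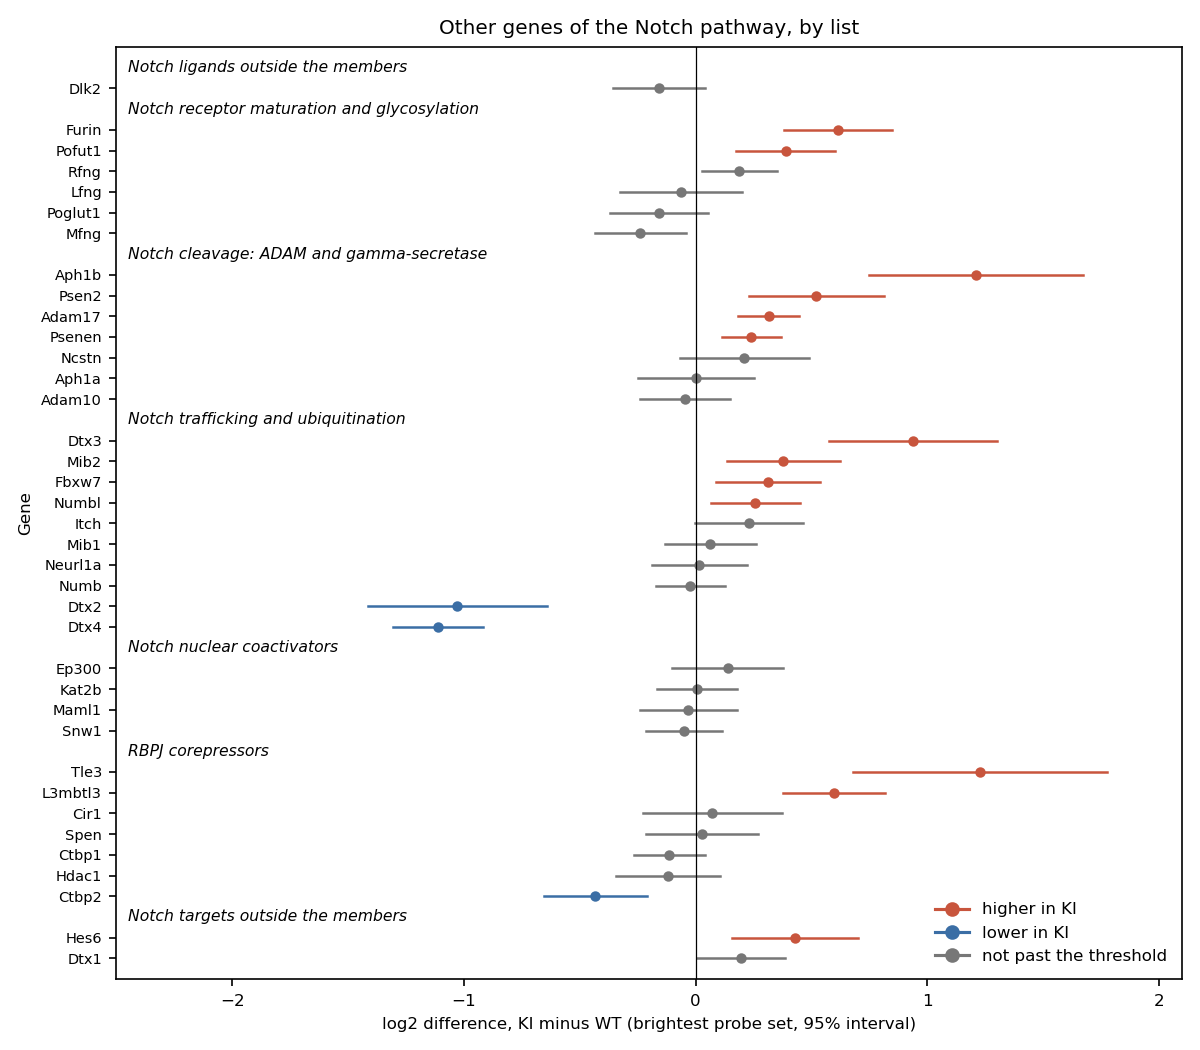
Difference between KI and WT cells (log2, x axis) with its 95% interval for the 37 tested genes of the 7 other Notch pathway lists, each by its brightest probe set; red marks genes called higher in KI cells, blue lower and grey neither. Aph1b, Tle3 and Dtx3 lie farthest to the right, and Dtx4 and Dtx2 farthest to the left.

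**Figure D5:**
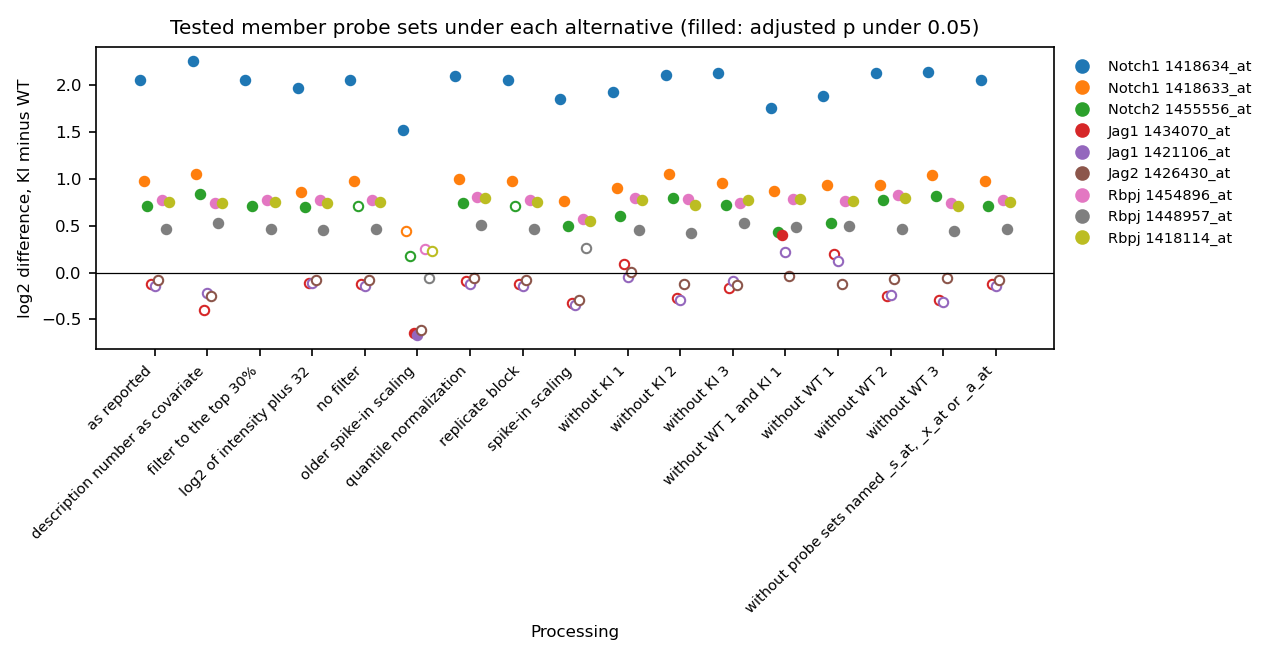
Difference between KI and WT arrays (log2, y axis) of the 9 tested Notch pathway probe sets under the reported processing and each alternative (x axis); filled points passed an adjusted p of 0.05. The brighter Notch1 probe set stays between 1.53 and 2.26 and passed under all 16 alternatives, and the other points fall furthest under the older spike-in scaling.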

How the data were processed

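RNA of 3 WT and 3 KI samples was labelled from the 3′ end, per the labels' protocols, and measured on Affymetrix arrays of mouse genes. The authors deposited 1 linear intensity for each probe set and array, made with Affymetrix Expression Console per the submitters' processing notes; the sources used here do not give its version, summarisation or normalization. Of 45101 probe sets, 64 controls were left out; the platform annotation gave 1 symbol for 34945, several for 932 and none for 9160. Intensities were floored at 16 (5.46% lay below) and log2 transformed. Probe sets with a mean log2 value above the median of all were tested, KI against WT, with limma 3.58.1 in R 4.3.3 (eBayes with an intensity trend, Benjamini-Hochberg over 22518). Single values were compared by exact permutation. The steps were tested on simulated data. The number of arrays limits precision. The members and lists were chosen with earlier results of these data known. Named were all members and up to 4 genes of each pathway list by smallest p. So were 4 nearest genes of 2 members and up to 2 bright markers a list. Hes5, Adam10, Aph1a, Dcn, Gp9 and markers under the filter were named after their values were seen. Alternatives were other scalings (quantile and 2 sets of spike-in probe sets), no filter or the top 30%, log2 of intensity plus 32, a covariate for the number that each sample's description carries, a block for replicate number, leaving out arrays, and dropping the probe sets whose suffix marks possible matches to several transcripts.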

Additional observations from a re-analysis of the deposited data

How the results depend on the processing

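The rise of the brighter Notch1 probe set passed under all 16 alternatives, and 6 member probe sets were higher whichever single array was left out. Of all probe sets, 6793 to 9335 passed (2936 to 4180 higher, 3857 to 5155 lower) without 1 array, and 8 to 12 pathway genes were higher, fewest without KI 3. With spike-in scaling 2546 probe sets were higher and 9011 lower, with 6 pathway genes higher and 8 lower. With older spike-in scaling the counts were 728 and 10586, with 3 member probe sets called (1 higher, 2 lower) and 2 pathway genes higher and 9 lower. The description number as a covariate left 6481 (2844 higher, 3637 lower) and 8 pathway genes higher. The labels do not say whether same-numbered arrays were prepared together. Deviations from the group mean correlated at -0.40, -0.29 and -0.30 for same-numbered arrays. They correlated at -0.28 to 0.40 for the other pairs. With 3 arrays in each group, these values cannot decide whether the numbers pair the arrays. With the replicate block 6184 passed (2693 higher, 3491 lower), and 8 pathway genes (6 higher). It ended the calls of Notch2, Pofut1, Psenen, Psen2, Mib2, Hes6 and Ctbp2 and no other among the members and the pathway genes named by smallest p. Calls of markers and nearest genes were not followed there.

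Direction turned for these values. Older spike-in scaling gave -0.061 for Rbpj 1448957_at, -0.14 for Pofut1, -0.34 for Rfng, -0.21 for Adam17, -0.29 for Psenen, -0.0084 for Psen2, -0.15 for Mib2, -0.39 for Ep300, -0.52 for Kat2b, -0.10 for Hes6 and -0.33 for Dtx1. Spike-in scaling gave -0.018 for Rfng, -0.068 for Ep300, -0.20 for Kat2b and -0.0095 for Dtx1. The covariate gave 0.0032 for Snw1 and 0.062 for Maml1, and quantile normalization 0.019 for Maml1. Without WT 1 and KI 1, Jag1 gave 0.40 and 0.22 and Kat2b -0.067. Leaving out 1 array at a time, the ranges were -0.30 to 0.20 and -0.31 to 0.13 for Jag1, -0.13 to 0.0025 for Jag2, -0.089 to 0.029 for Maml1 and -0.043 to 0.059 for Kat2b. The cause was not tested. Low signal over background limits the 11 dim member probe sets.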
